A study of Mus musculus with 8 samples.

Results

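The ADAMTS proteases are secreted zinc metalloproteases with thrombospondin repeats that cut proteins of the extracellular matrix. The genes described here are Adamts1, Adamts2, Adamts3, Adamts4, Adamts5, Adamts8, Adamts9, Adamts12, Adamts15 and Adamts20, which are 10 of the 20476 genes with an mRNA probe on the arrays. They were found by the gene symbol of each RefSeq mRNA probe, and every probe of each gene was taken, 30 in all. The samples were T9 to T10 spinal cord of 8 female mice aged 8 weeks, 1 mouse per array: 4 with a contusion, in which a blow bruises the cord, and 4 controls. The titles place the contused cords at 3 days after injury, whereas the descriptions of contusion replicates 1, 2, 3 and 4 give 3, 4, 5 and 6 days. The controls are called sham in the design text and normal cord in their descriptions. Strain and genotype are not given in the sources used here for either group. Slide 1 held contusion replicate 1 with control replicates 2, 3 and 4, and slide 2 held contusion replicates 2, 3 and 4 with control replicate 1. The described day of contusion replicate 1 and its slide therefore cannot be told apart.

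One branch of the family cuts the chondroitin sulfate proteoglycans aggrecan, brevican, neurocan and versican, which fill the spaces between neurons and glia and form perineuronal nets. These enzymes are known as aggrecanases or proteoglycanases, and Adamts1, Adamts4, Adamts5, Adamts8, Adamts9, Adamts15 and Adamts20 belong to that branch. Adamts2 and Adamts3 remove the amino-terminal propeptide of fibrillar procollagens, and Adamts12 cuts cartilage oligomeric matrix protein. In the injured cord the proteoglycans accumulate around the lesion and are known to hinder axon growth, and enzymes that cut them have been studied there for that reason.

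Of the 10 genes, 6 were higher and 1 was lower in contused cord, and 3 did not pass the test. Adamts1 and Adamts8 rose by more than a log2 unit at every one of their probes. Adamts12, whose probes were dim, rose by 1.05. After a background correction with an added offset, which shrinks the differences of dim probes, Adamts12 rose by 0.22. Adamts9 and Adamts5 rose less than a log2 unit, and Adamts4 rose by 0.29. Adamts3 fell by 0.85 on the log2 scale. Adamts2, Adamts15 and Adamts20 did not pass the test. A gene was called where limma's adjusted p was under 0.05, and by that rule 51.1% of the 18198 mRNAs tested were called, 25.8% higher and 25.3% lower. The median difference of the 10 genes was 0.53, beside -0.00 for all mRNAs tested. The 2 groups did not overlap for 7 of the 10 genes, beside 51.7% of all mRNAs tested. All 10 genes and all 30 of their probes passed the filter on dim probes, 1 Adamts12 probe mainly through the contused arrays.

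A level below is the log2 intensity of a probe relative to the 75th percentile of its array, so that a probe at 0 is as bright as that percentile. A difference is contusion minus control on that log2 scale ± limma's standard error, with 4 arrays per group, and levels are given as mean ± SD where averaged. The brightest probe stood for a gene. Arrays rather than read depth set the precision here, and 72.9% to 75.4% of probes were well above background on each array. Levels of different probes are not comparable with each other, since each probe binds its target with its own strength. These were whole pieces of tissue, in which fewer cells of a type and less RNA per cell cannot be told apart.

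Each measurement rests on 60 bases of an mRNA. The probes shown carry the main results and have letters open in a reading frame, which does not by itself place them in the coding sequence: Adamts1 and Adamts9 among the genes that rose in contused cord, Adamts3 as the gene that fell, Adamts12 as the dim gene that rose, and the brightest Adamts2 probe. All are written from 5′ to 3′ in the sense of the mRNA, as the array files give them, with positions on mm9.
Adamts1, chr16:85796191-85796250, minus strand: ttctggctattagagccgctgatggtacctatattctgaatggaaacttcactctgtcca
Adamts9, chr6:92837403-92837711, minus strand: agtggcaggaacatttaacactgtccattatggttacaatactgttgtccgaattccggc
Adamts3, chr5:90106407-90106466, minus strand: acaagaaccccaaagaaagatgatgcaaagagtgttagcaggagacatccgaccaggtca
Adamts12, chr15:11266072-11266131, plus strand: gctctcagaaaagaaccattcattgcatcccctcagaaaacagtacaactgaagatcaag
Adamts2, chr11:50617472-50617531, plus strand: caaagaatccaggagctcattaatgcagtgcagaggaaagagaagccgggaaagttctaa
The Adamts9 probe covers 309 bases of the genome with its 60 bases, so it crosses a splice junction and reads spliced RNA.

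Adamts1, an aggrecan- and versican-cutting protease that also restrains blood vessel growth, had the largest difference of the 10 genes at their brightest probes. The levels of that probe were 3.21, 3.38, 3.11 and 3.22 in contused cords, against 1.77, 1.76, 2.32 and 1.66 in control cords. The lowest contused cord was above the highest control cord, and control replicate 3 was the highest of the controls. The mean was 3.23 ± 0.11 in contused cord and 1.87 ± 0.30 in control cord (SD, n = 4 each), a difference of 1.36 ± 0.15, or 2.56-fold (limma adjusted p = 0.000305). The difference was 1.30 within slide 1 and 1.47 within slide 2. The other probe, printed above, had a level of -0.05, 0.19, -0.13 and 0.13 in contused cords, against -1.33, -1.58, -1.01 and -1.53 in controls. Its difference was 1.40 ± 0.14, so both probes of the gene moved alike.

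Adamts8, a relative of Adamts1 that likewise restrains blood vessel growth, had levels of -0.02, -0.04, 0.28 and 0.54 in contused cords, against -1.14, -0.88, -0.80 and -1.09 in control cords. All contused cords lay above all controls. The difference was 1.17 ± 0.15, or 2.25-fold (limma adjusted p = 0.000566). Its 3 probes differed by 1.17 to 1.35 and all were called higher. The difference was smaller on slide 1, at 0.91, than on slide 2, at 1.41, and the difference between slides was not tested.

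Adamts9 cuts versican and aggrecan and is known for its part in vessel and connective tissue development. Its levels were 1.14, 1.22, 1.14 and 1.43 in contused cords, against 0.16, 0.46, 0.57 and 0.58 in control cords, without overlap. The difference was 0.79 ± 0.12, or 1.73-fold (limma adjusted p = 0.00110). All 3 probes were called higher. The junction-crossing probe printed above was dim, at -2.86, -2.43, -2.63 and -2.39 in contused cords, against -4.10, -3.60, -3.56 and -3.39 in controls. Its difference, 1.09 ± 0.17, was the largest of the 3 probes of the gene, and the remaining probe gave 0.79 ± 0.11.

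Adamts5, also called aggrecanase 2, had levels of 2.19, 2.39, 2.18 and 2.17 in contused cords, against 1.65, 1.11, 2.17 and 1.34 in control cords. Control replicate 3 came close to the lowest contused cord, and the other 3 controls were well below. The difference was 0.67 ± 0.21, or 1.59-fold (limma adjusted p = 0.0334). With slide as a block it was 0.63 at an adjusted p of 0.0973. The call was lost in 7 of the 8 fits that left out 1 array, with adjusted p-values from 0.0529 without control replicate 1 to 0.0879 without control replicate 4, and it was kept only without control replicate 3, where the difference was 0.87. The other probes of Adamts5 gave 0.42 ± 0.17 and 0.28 ± 0.26, and neither was called.

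Adamts4, or aggrecanase 1, is an aggrecanase of the central nervous system that also cuts brevican, and it is known from the mouse as an oligodendrocyte gene. It had a level of 3.61, 3.66, 3.66 and 3.65 in contused cords, against 3.25, 3.45, 3.20 and 3.50 in control cords. The contused cords lay within a narrow band just above the controls. The difference was 0.29 ± 0.08, or 1.23-fold (limma adjusted p = 0.0220). The call was lost without control replicate 3, at an adjusted p of 0.0518, and without contusion replicate 2, 3 or 4, at 0.0503, 0.0551 and 0.0508. The other probe differed by 0.16 ± 0.09 and was not called, with overlapping groups.

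Adamts15, another aggrecanase, had levels of -0.10, -0.03, 0.10 and 0.36 in contused cords, against -0.21, -0.34, 0.26 and -0.21 in control cords. Control replicate 3 lay among the contused cords. The difference of 0.21 ± 0.15 did not pass the test (limma adjusted p = 0.321), and neither did that of its other probe, 0.23 ± 0.14. Adamts20, the closest relative of Adamts9 and known in the mouse for the belted coat mutation, had levels of 2.07, 1.67, 1.93 and 2.02 in contused cords, against 1.88, 2.36, 2.27 and 2.34 in controls. Control replicate 1 lay among the contused cords. The difference was -0.29 ± 0.13 (limma adjusted p = 0.126), and without control replicate 1 it was -0.40 at an adjusted p of 0.0222. The 4 Adamts20 probes ran from -0.29 to 0.39 and none was called. A dimmer probe among them had all contused cords below all controls, at -0.24 ± 0.08 (limma adjusted p over probes = 0.0503).

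Adamts3, a procollagen N-proteinase that also cuts reelin and matures the lymphatic growth factor Vegfc, was the only one of the 10 genes called lower in contused cord. Its levels were 0.15, 0.26, 0.06 and 0.12 in contused cords, against 0.76, 1.03, 0.98 and 1.21 in control cords. The groups were apart and the contused cords varied less than the controls. The difference was -0.85 ± 0.10, or 0.556-fold (limma adjusted p = 0.000440). The 3 probes differed by -0.85 to -1.03 and all were called lower, the probe printed above by -1.03 ± 0.19. The difference was -0.92 within slide 1 and -0.61 within slide 2.

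Adamts2, the main N-proteinase of type I procollagen, gave probes that disagreed. Its brightest probe, printed above, had levels of 2.42, 1.87, 2.31 and 1.91 in contused cords, against 1.20, 1.18, 2.40 and 2.18 in control cords. The controls fell into a low pair, replicates 1 and 2, and a high pair, replicates 3 and 4, and the high pair lay within the contused range. The difference of 0.39 ± 0.30 did not pass the test (limma adjusted p = 0.352). A probe for another RefSeq transcript of the gene, at chr11:50611478-50611537 on mm9, had levels of 0.48, 0.53, 0.40 and 0.18 in contused cords, against 1.06, 1.23, 0.94 and 1.22 in controls. It fell by 0.72 on the log2 scale with groups apart (standard error 0.10, limma adjusted p over probes = 0.000806) and was the only one of the 5 Adamts2 probes called. The other 3 gave 0.44, -0.02 and -0.16. The difference between the brightest probe and that of the other transcript was 1.11 larger in contused than in control cord (exact permutation test over arrays, two-sided, p = 0.0571, adjusted over 3 such pairs 0.0571). The smallest p that 4 against 4 arrays allow is 0.0286. This pair joins the brightest probe and the only called one, and other Adamts2 probe pairs were not tested. The adjustment therefore does not cover the choice of the pair.

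Adamts12 cuts cartilage oligomeric matrix protein. Its probes were dim, and the brightest had levels of -3.88, -3.33, -3.31 and -3.03 in contused cords, against -4.31, -5.05, -4.10 and -4.32 in control cords. All contused cords lay above all controls, with contusion replicate 1 nearest to them. The difference was 1.05 ± 0.24, or 2.08-fold (limma adjusted p = 0.00896). With normexp background correction it was 0.22 (limma adjusted p = 0.0322), and 0.21 with quantile scaling as well, so the call held. That correction adds an offset of 50 to every intensity, which by itself shrinks the differences of dim probes. The smaller size therefore cannot show whether the size of 1.05 holds. A second probe was well above background on 4 contused arrays but only 1 control array, and passed the filter through the contused arrays. For it only an approximate bound is given, 2.49-fold higher in contused cord. The bound was taken against the higher of its own signal and the lowest signal well above background on each control array. Probes brighter than that lowest signal can still lack the flag, so the bound is not strict. The limma adjusted p of 0.00289 belongs to the difference without that bound. Since the filter selected the probe through the group where it was high, its call is no separate support. The third probe, well above background on 4 contused and 3 control arrays, differed by 1.10 ± 0.35, with contusion replicate 1 inside the control range. Its approximate bound, taken in the same way, was 2.10-fold. Its call was lost with slide as a block (limma adjusted p = 0.0600) and without control replicates 2, 3 or 4 or contusion replicates 2, 3 or 4, each in turn. The difference of the brightest probe was 0.61 within slide 1, which holds contusion replicate 1 alone, and 1.08 within slide 2. With contusion replicate 1 alone set against the controls it was 0.56 at an adjusted p of 0.376, where the lone array is assumed to vary like the controls.

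**Figure D1:**
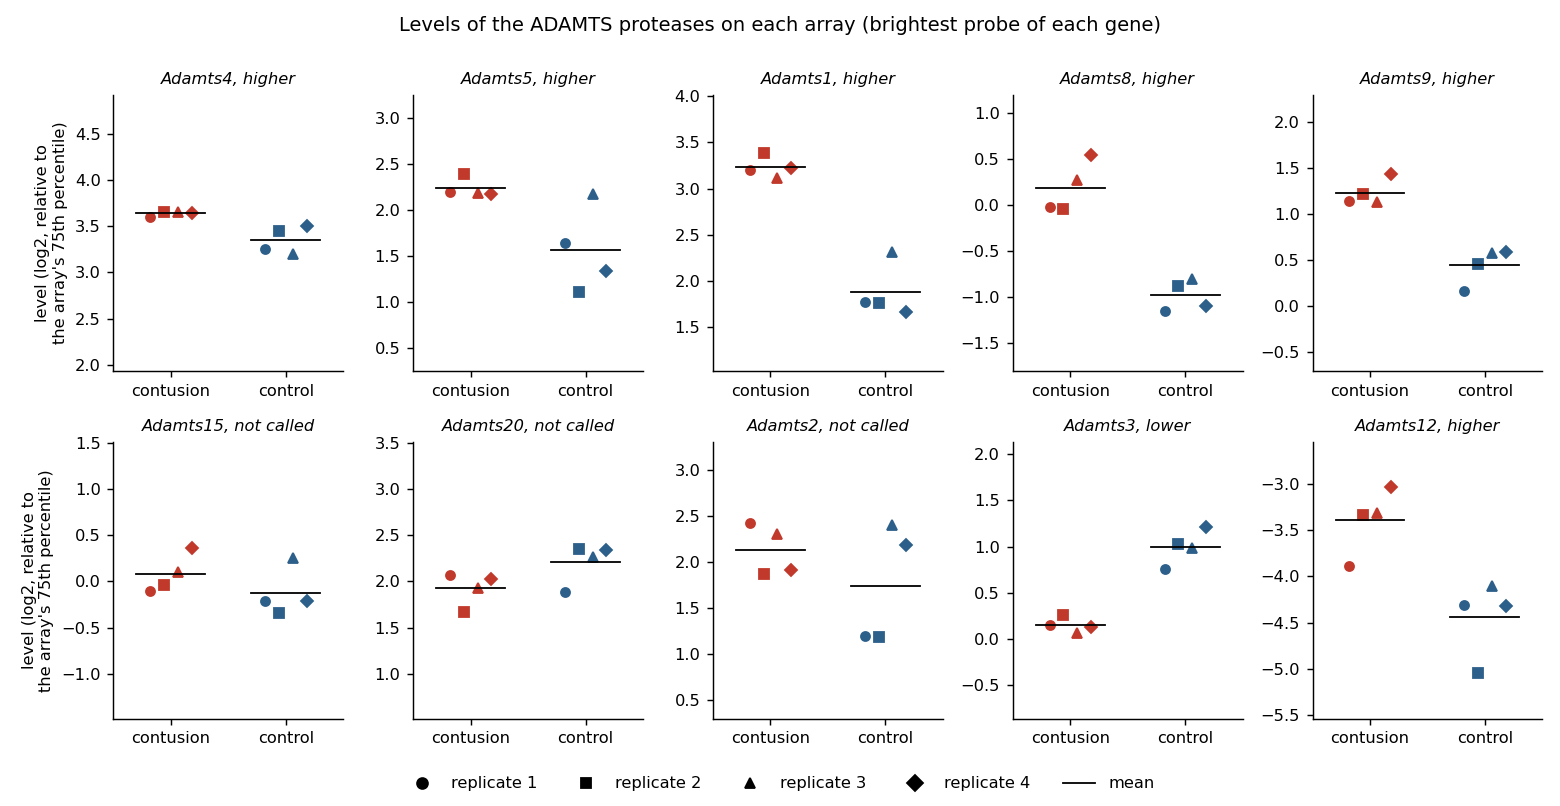
Level of the brightest probe of each ADAMTS gene on each array (y axis, log2 relative to the array's 75th percentile, each panel spanning the same range), contused cords in red on the left and control cords in blue on the right; symbols mark replicates and the bar the mean of 4 arrays. Contused cords lie above all controls for Adamts1, Adamts4, Adamts5, Adamts8, Adamts9 and Adamts12, below them for Adamts3, and among them for Adamts2, Adamts15 and Adamts20.

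Taken by probe, 13 of the 30 were called higher, 4 lower and 13 not called, in a fit where 53.6% of the 41078 mRNA probes tested were called, 26.5% higher and 27.1% lower. No gene had probes called in opposite directions. The probes of Adamts1, Adamts3, Adamts8 and Adamts9 were all called one way. For Adamts12, 1 of the 3 called probes is the one measured on 1 control array only, and Adamts4 and Adamts5 had 1 called probe each. The plot of all probe differences shows this, with Adamts2 as the gene whose probes spread most, from -0.72 to 0.44.

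**Figure D2:**
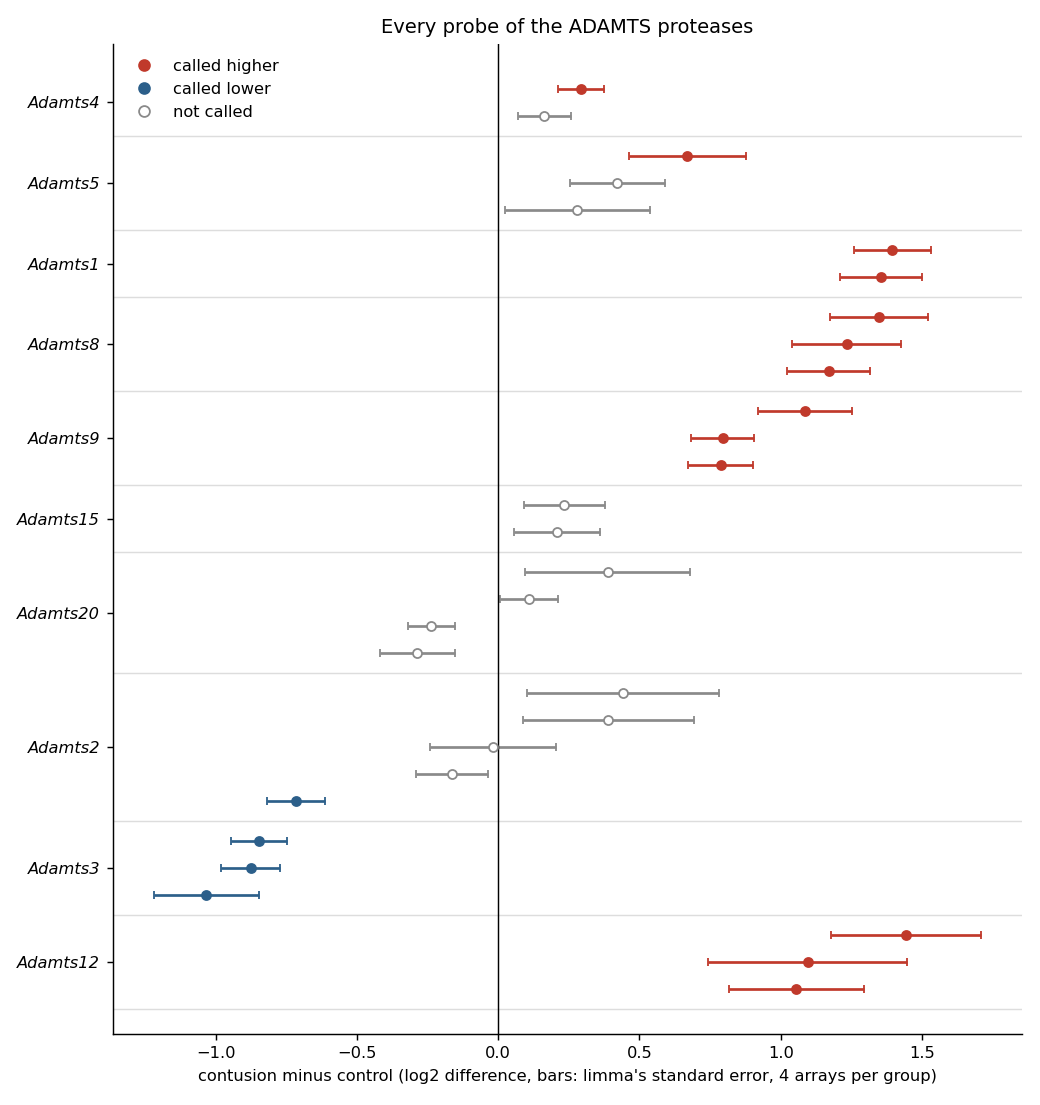
Difference of every probe of the 10 ADAMTS genes (x axis, contusion minus control, log2; bars are limma's standard error, 4 arrays per group), grouped by gene. Filled red points were called higher, filled blue points lower and open points not called; 17 of the 30 probes were called.

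Some of these genes lie side by side in the genome. Adamts1 and Adamts5 are neighbours on chromosome 16, and Adamts8 and Adamts15 on chromosome 9. The difference of Adamts1 was 0.69 larger than that of Adamts5, computed on each array as the gap between the genes (exact permutation test over arrays, two-sided, p = 0.0286, adjusted over 3 pairs 0.0429). That gap was 0.93 to 1.04 in contused cords, against 0.12 to 0.64 in controls, without overlap. The difference of Adamts8 was 0.96 larger than that of Adamts15 (the same exact test, p = 0.0286, adjusted 0.0429), with a gap of -0.01 to 0.18 in contused cords, against -1.06 to -0.54 in controls. In both pairs the 2 neighbours therefore changed unequally at their brightest probes. The test shuffled arrays without regard to slide, so a part of the slides in these gaps was not tested. A p of 0.0286 is the smallest that this exact test can give.

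The arrays also carry probes for circular RNAs, closed loops formed when the end of an exon is joined back to an earlier start. These are named by position, and 21 lay inside the span of 1 of these genes alone in the RefSeq table of GRCm38.p6. The genome build of these positions is not given in the sources used here. Of all circRNA positions on the array, 98.2% fell inside a gene of that table, beside 40.8% once shifted by 1000000 bases. Of the 21, 18 passed the filter on dim probes and 4 were called higher and 0 lower, in a fit where 41.9% of the 35615 circRNAs tested were called, 16.2% higher and 25.7% lower. The 4 lie in Adamts1, Adamts9 and Adamts12, all of which were higher as mRNAs. At an unadjusted limma p under 0.05, 5 of the 18 were higher and 0 lower. The share of all circRNAs at that threshold was not taken, but it is at least the 41.9% called after adjustment. None of the 5 was among the 6 tested in Adamts20 or the 1 in Adamts2. No circRNA probe shared more than 9 bases in a row with an mRNA probe of its gene. A circRNA probe still holds exon sequence that the linear mRNA carries too, and the share of linear RNA in these signals was not tested.

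The probes below are those of the called circRNAs of Adamts1 and Adamts9, and the Adamts12 probes whose 52 bases at the 3′ end, in capitals, are the same. For Adamts12, 5 circRNAs start at one position and 2 at another, and within each set the probes differ in their first 8 bases only.
Adamts1 chr16:85797718-85799213, minus strand: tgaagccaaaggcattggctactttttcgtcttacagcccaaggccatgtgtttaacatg
Adamts9 chr6:92901375-92912912, minus strand: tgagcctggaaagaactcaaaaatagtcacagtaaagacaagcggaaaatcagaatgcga
Adamts12 chr15:11071499-11071866, plus strand: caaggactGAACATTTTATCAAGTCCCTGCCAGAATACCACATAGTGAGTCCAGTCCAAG
Adamts12 chr15:11071499-11088842, plus strand: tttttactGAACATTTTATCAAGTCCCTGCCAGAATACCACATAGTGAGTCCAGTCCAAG
Adamts12 chr15:11071499-11122027, plus strand: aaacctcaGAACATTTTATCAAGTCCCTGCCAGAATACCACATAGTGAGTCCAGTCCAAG
Adamts12 chr15:11071499-11152071, plus strand: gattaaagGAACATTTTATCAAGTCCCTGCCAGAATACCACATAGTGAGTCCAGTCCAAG
Adamts12 chr15:11071499-11241545, plus strand: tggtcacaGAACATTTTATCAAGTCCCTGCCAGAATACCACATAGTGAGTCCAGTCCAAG
Adamts12 chr15:11277336-11292136, plus strand: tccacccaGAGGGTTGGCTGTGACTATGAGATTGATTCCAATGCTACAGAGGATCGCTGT
Adamts12 chr15:11277336-11331861, plus strand: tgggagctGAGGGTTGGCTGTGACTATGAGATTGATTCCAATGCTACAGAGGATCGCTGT
Probes that share so many bases can bind the same RNA, so the members of a set are not separate measurements.

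The Adamts1 circRNA had levels of -0.26, -0.04, -0.38 and 0.05 in contused cords, against -1.61, -1.80, -1.16 and -1.64 in control cords. The groups were apart, and control replicate 3 was again the highest control. The difference was 1.39 ± 0.15 (limma adjusted p = 0.000325), beside 1.36 for the mRNA. The Adamts9 circRNA had levels of -3.74, -3.35, -3.49 and -3.10 in contused cords, against -4.50, -4.80, -5.32 and -4.50 in controls, also without overlap. Its difference was 1.36 ± 0.21 (limma adjusted p = 0.00135), beside 0.79 for the brightest mRNA probe, and the difference between circRNA and mRNA was not tested.

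Within Adamts12, the circRNA that ends at 11122027 had levels of 1.52, 1.92, 1.76 and 2.21 in contused cords, against 1.53, 1.49, 1.30 and 1.12 in control cords. Contusion replicate 1 fell within the controls. The difference was 0.49 ± 0.16 (limma adjusted p = 0.0361), and with slide as a block the adjusted p was 0.126. The other 4 probes of that set gave 0.15 to 0.65 and none was called. The circRNA that ends at 11292136 had levels of -2.66, -2.60, -2.53 and -2.93 in contused cords, against -3.32, -4.05, -2.88 and -3.55 in controls, where control replicate 3 lay above contusion replicate 4. Its difference was 0.77 ± 0.23 (limma adjusted p = 0.0275; 0.0819 with slide as a block), and its partner with the same 52 bases gave 0.58 ± 0.26, not called. Leaving out 1 array ended the first of these Adamts12 calls without control replicates 2, 3 or 4 or contusion replicates 2, 3 or 4, each in turn, and the second without control replicate 4 or contusion replicates 1, 2 or 3.

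**Figure D3:**
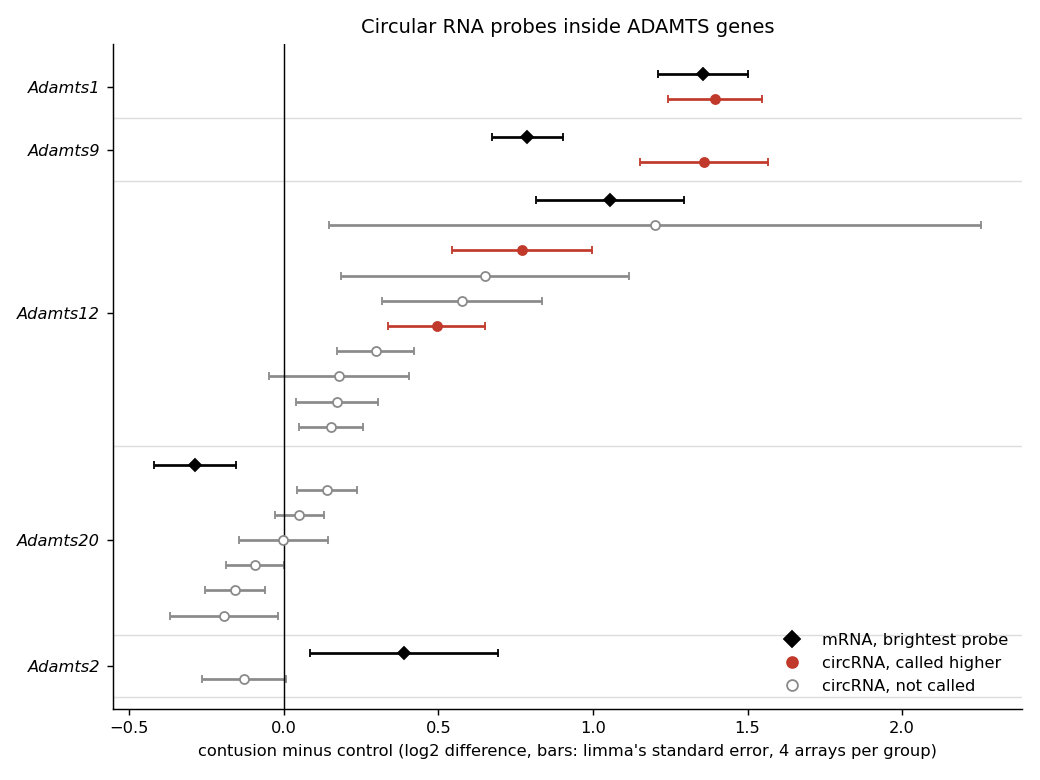
Difference of the 18 tested circRNAs (circles) and of the brightest mRNA probe (black diamonds) of 5 ADAMTS genes (x axis, contusion minus control, log2; bars are limma's standard error, 4 arrays per group). Filled red circles were called higher and open circles not called; the circRNA of Adamts1 lies close to its mRNA, at 1.39 beside 1.36.

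Promoter sequence was at hand for 6 of the 10 genes: Adamts1, Adamts2, Adamts3, Adamts9, Adamts12 and Adamts20. The 250 bases before the start are given for Adamts1 and Adamts9, which were higher in contused cord, and for Adamts3, which was lower, from RefSeq on GRCm38.p6 and written along the gene's strand. Capitals mark matches, on either strand, to TATAAA (core letters of the TATA box), to GGGCGG (the GC box) and to TGANTCA (the AP-1 site).
Adamts1 chr16:85803114-85803363, minus strand: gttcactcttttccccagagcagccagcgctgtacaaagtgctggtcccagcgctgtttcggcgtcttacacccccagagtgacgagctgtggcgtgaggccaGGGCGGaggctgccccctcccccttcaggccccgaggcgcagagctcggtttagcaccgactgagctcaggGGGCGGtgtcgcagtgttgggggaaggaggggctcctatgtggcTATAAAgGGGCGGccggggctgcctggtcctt
Adamts9 chr6:92943535-92943784, minus strand: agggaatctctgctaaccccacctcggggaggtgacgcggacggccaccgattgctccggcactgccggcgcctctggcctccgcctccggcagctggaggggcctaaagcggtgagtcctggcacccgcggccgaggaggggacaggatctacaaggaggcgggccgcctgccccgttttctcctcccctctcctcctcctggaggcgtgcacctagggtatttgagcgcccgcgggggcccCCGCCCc
Adamts3 chr5:89883335-89883584, minus strand: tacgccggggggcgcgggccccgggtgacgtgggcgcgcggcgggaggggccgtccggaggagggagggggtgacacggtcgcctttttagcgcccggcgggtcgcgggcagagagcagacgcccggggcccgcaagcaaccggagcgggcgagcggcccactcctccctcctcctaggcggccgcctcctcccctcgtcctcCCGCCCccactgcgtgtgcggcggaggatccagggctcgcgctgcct
TATAAA was found in 1 of the 6 promoters, that of Adamts1, 32 bases before the start, and in 12.4% of all 32851 promoters of the table. GGGCGG was found in 5 of the 6, all but Adamts12, and in 32.7% of all promoters, and Adamts1 held it at 147, 76 and 25 bases before its start. TGANTCA was found in none of the 6 and in 6.75% of all promoters. No 2 motifs overlap in the printed windows, and these matches are letters only.

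The genes around the proteases were described by lists of substrates, inhibitors and partners. The counts called in these lists stand beside 25.8% of all mRNAs tested called higher and 25.3% lower. Among the 9 other ADAMTS proteases tested, 2 were called higher and 3 lower. Adamts14, a procollagen N-proteinase like Adamts2, rose by 1.54 ± 0.15, or 2.91-fold (limma adjusted p = 0.000219), and Adamts7, the closest relative of Adamts12, rose by 1.08 ± 0.24. Adamts16, Adamts17 and Adamts19 fell by 0.47, 0.72 and 0.74 on the log2 scale. Of the 6 ADAMTS-like proteins, which lack the protease part, Papln rose by 0.90 ± 0.14 and Adamtsl4 by 0.39 ± 0.10, and 4 were not called.

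The 4 proteoglycan substrates moved in different directions. Versican (Vcan) rose by 1.10 ± 0.08, or 2.14-fold (limma adjusted p = 0.000113), and neurocan (Ncan) by 0.64 ± 0.09. Brevican (Bcan), a proteoglycan of the mature perineuronal net, fell by 1.06 on the log2 scale (standard error 0.10), and aggrecan (Acan) differed by -0.12 ± 0.06, which did not pass the test. Of the 9 genes of the hyaluronan and glycan matrix, 5 rose and 3 fell. Tenascin C (Tnc), the hyaluronan receptor Cd44 and the hyaluronan synthase Has2 rose by 2.97, 2.07 and 2.02, whereas Hapln1 and Hapln4, the link proteins that tie proteoglycans to hyaluronan, fell by 1.70 and 1.25 on the log2 scale. Has1 fell by 0.33, with an adjusted p of 0.0687 once slide was a block.

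Of the 6 procollagen genes, Col5a2, Col2a1 and Col5a1 were called higher, at 1.41 ± 0.33, 1.36 ± 0.46 and 1.23 ± 0.31, and with slide as a block 1 of the 6 was called. Col3a1, Col1a1 and Col1a2 had differences of 1.36 ± 0.56, 1.20 ± 0.45 and 0.83 ± 0.36 that did not pass the test. Among 10 other substrates, 5 rose and 1 fell. Thbs1, which carries the thrombospondin repeats for which the family is named, rose by 3.56 ± 0.24, or 11.8-fold (limma adjusted p = 9.70e-05), fibronectin (Fn1) by 1.93 ± 0.27 and Thbs2 by 1.24 ± 0.19. Reelin (Reln), cut by Adamts3, fell by 0.53 on the log2 scale (standard error 0.09), and Vegfc, matured by Adamts3, differed by -0.13 ± 0.07 and did not pass. Comp, the substrate of Adamts12 and Adamts7, had a difference of -0.83 ± 0.44 that did not pass either.

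Of the 6 inhibitors, 4 rose. Timp1 rose by 2.59 ± 0.27, with 3 control values since 1 spot was left out as an outlier, and A2m, a broad trap for proteases, rose by 0.83 ± 0.16. Timp3, the main tissue inhibitor of the aggrecanases, rose by 0.46 ± 0.10, or 1.38-fold (limma adjusted p = 0.00698). Timp4 rose by 0.45 ± 0.14, with an adjusted p of 0.122 once slide was a block. Timp2 and Reck had differences of -0.37 ± 0.14 and -0.13 ± 0.10 that did not pass. Of 8 genes of activation and clearance, Furin, which removes the inhibitory prodomain of ADAMTS proteases, rose by 0.83 ± 0.07, Sdc4, a cell-surface partner of Adamts5, by 0.67 ± 0.09, and Lrp1, the receptor that clears Adamts4 and Adamts5, by 0.53 ± 0.06. The convertase Pcsk5 and the membrane metalloprotease Mmp17 fell by 0.67 and 0.62 on the log2 scale, and 3 were not called.

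Cytokines known to raise ADAMTS expression in other cells and tissues were higher in contused cord for 6 of 7 genes. Tnf rose by 3.47 ± 0.32, or 11.1-fold (limma adjusted p = 0.000188), Lif by 2.77 ± 0.19, Il6 by 2.31 ± 0.33, Il1b by 2.18 ± 0.55, Tgfb1 by 1.68 ± 0.21 and Osm by 0.99 ± 0.19. With slide as a block the adjusted p of Il1b was 0.0515, and Il1a had a difference of 0.43 ± 0.24 that did not pass.

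**Figure D4:**
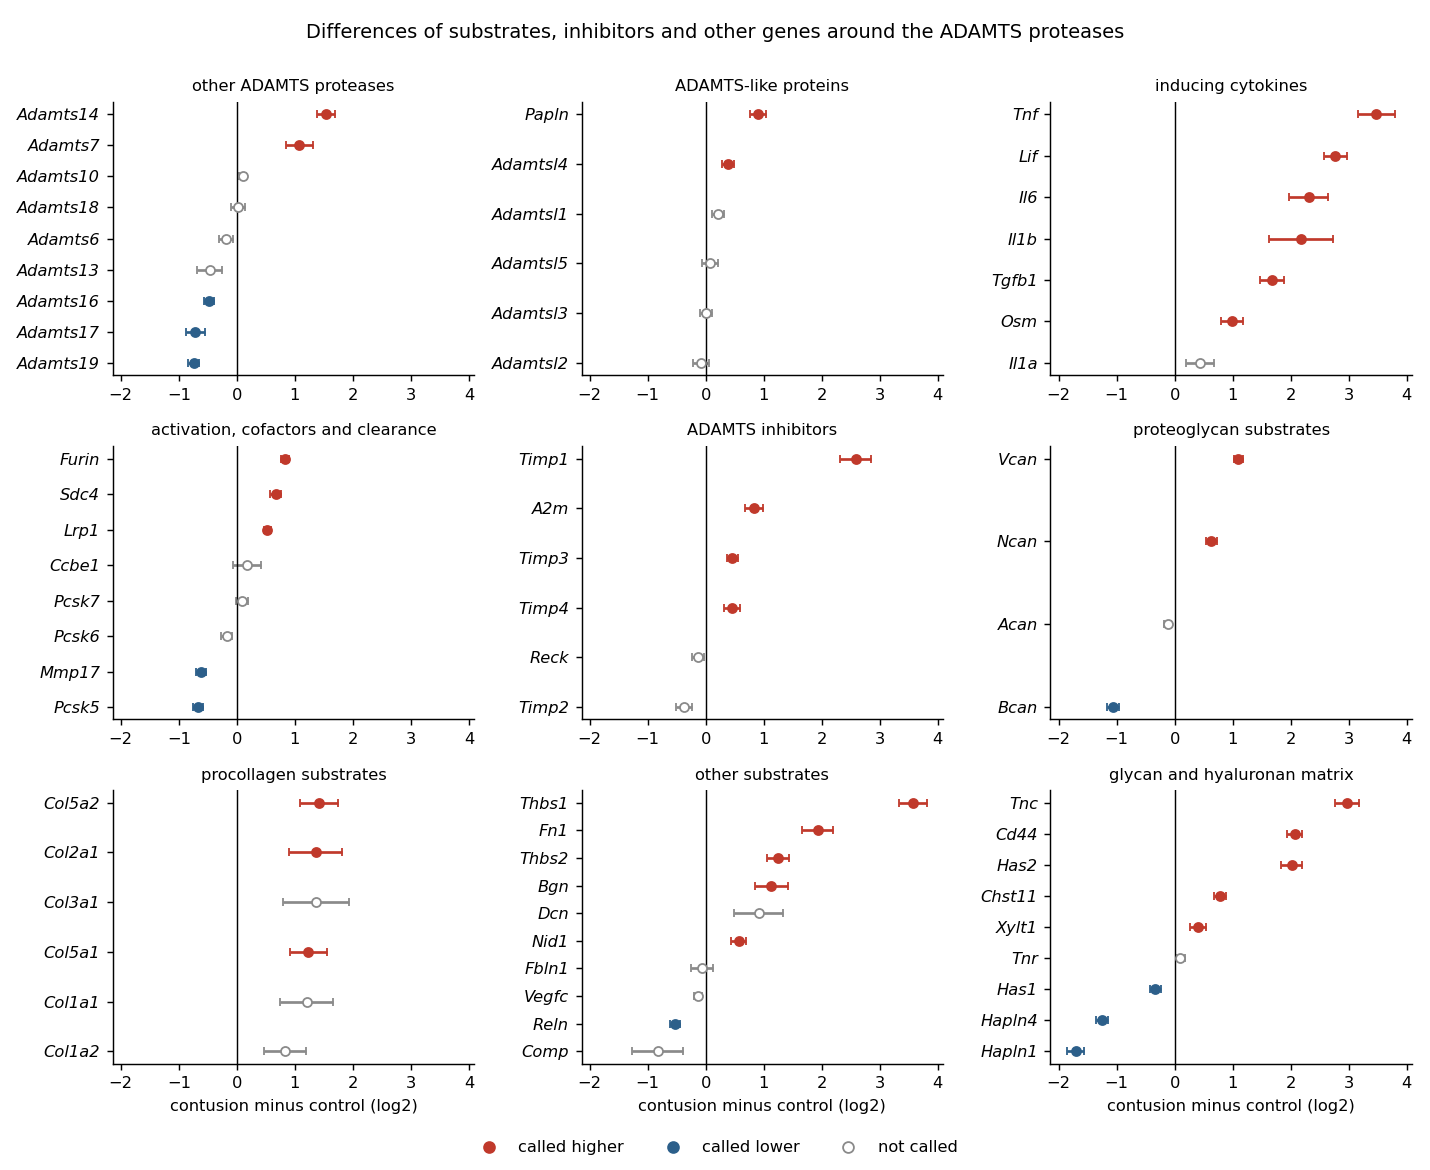
Difference of each gene in 9 lists of relatives, inducers, partners, inhibitors and substrates of the ADAMTS proteases (x axis, contusion minus control, log2; bars are limma's standard error). Red points were called higher, blue points lower and open points not called; the proteoglycans run from -1.06 for Bcan to 1.10 for Vcan.

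For the 3 genes that differed by at least 1 on the log2 scale, the mRNA whose levels over the 8 arrays were most like theirs was looked up, as a description only, since both groups of arrays enter each correlation. Adamts1 was closest to Cd151, a tetraspanin membrane protein (Pearson r = 0.997), whose own difference was 1.08 ± 0.10. Adamts8 was closest to Traf7, a signalling protein of the TRAF family (r = 0.999), which differed by 0.35 ± 0.07. Adamts12 was closest to 2900026A02Rik (r = 0.984), which differed by 0.18 ± 0.06 and was not called.

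Markers of several cell types moved with the groups or with single arrays, and their part in the ADAMTS differences was not tested. For each list, the mean level of its genes was taken on each array. The counts of called markers here and below stand beside 25.8% of all mRNAs tested called higher and 25.3% lower. A count near those shares says little about its list. Endothelial markers were at 3.13 to 3.27 in contused cords, against 2.11 to 2.57 in controls (7 of 8 called higher), and pericyte and smooth muscle markers at 2.74 to 2.98, against 1.91 to 2.29 (6 of 9 higher). Monocyte and macrophage markers were at 3.44 to 3.79 in contused cords, against -0.12 to 1.58 in controls (9 of 9 higher), and neuron markers at 5.69 to 5.98, against 6.46 to 6.69 (8 of 8 lower). Oligodendrocyte markers were at 7.46 to 7.53 in contused cords, against 7.58 to 7.93 in controls (2 of 7 lower), and astrocyte markers at 5.78 to 5.83, against 5.59 to 5.83 (4 of 8 higher and 3 lower). With slide as a block, 1 oligodendrocyte marker was called lower, and 3 astrocyte markers higher and 3 lower. In that fit 7 pericyte and smooth muscle markers were called higher, and the endothelial, macrophage and neuron counts stayed the same. All 8 neuron, 8 astrocyte and 7 oligodendrocyte markers passed the filter on dim probes. So did every gene of the other marker lists, skeletal muscle and neutrophil among them, so the filter cannot check the labelled tissue.

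Fibroblast and meningeal markers were at 3.90, 3.58, 4.01 and 3.60 in contused cords, against 2.68, 1.72, 4.02 and 2.91 in control cords, with 2 of 9 called higher; Col1a1, Col1a2, Col3a1 and Dcn are in this list and among the substrates. Schwann cell markers were at 1.60, 1.97, 1.94 and 1.18 in contused cords, against 1.91, -0.39, 2.99 and 1.52 in controls, with 0 of 6 called by limma and 0 of 6 at an unadjusted p under 0.05. Control replicate 3 was thus the highest control array of both lists, as it was for Adamts1, Adamts2, Adamts5, Adamts8, Adamts12 and Adamts15. The same array was the highest control of the endothelial, pericyte and smooth muscle, monocyte and macrophage, and neutrophil lists as well. It was not the highest control of the astrocyte, oligodendrocyte, oligodendrocyte precursor, neuron and skeletal muscle lists. Without that array the differences were 0.61 for Adamts2, 0.87 for Adamts5, 1.17 for Adamts12 and 0.34 for Adamts15 (adjusted p = 0.0687, not called), beside 0.39, 0.67, 1.05 and 0.21 with it. Those of Adamts1 and Adamts8 were also larger, by less than 1.5 times. Adamts2, not called in any of these fits, was at 0.21 without control replicate 1 and at 0.20 without control replicate 2. Skeletal muscle markers were at 4.21, 2.27, -0.19 and -0.43 in contused cords, against 1.05, -1.18, 0.25 and -0.60 in controls (9 of 9 not called). They were highest in contusion replicates 1 and 2, without which Adamts12 differed by 1.27. In that fit Adamts4 and Adamts5 differed by 0.30 and 0.61 and lost their calls (limma adjusted p = 0.0960 and 0.157). Neutrophil markers were at 0.10 to 2.09 in contused cords, against -0.87 to 1.81 in controls (2 of 9 higher, 1 of 9 with slide as a block). Oligodendrocyte precursor markers were at 4.17 to 4.26 in contused cords, against 3.53 to 3.77 in controls (3 of 6 higher).

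**Figure D5:**
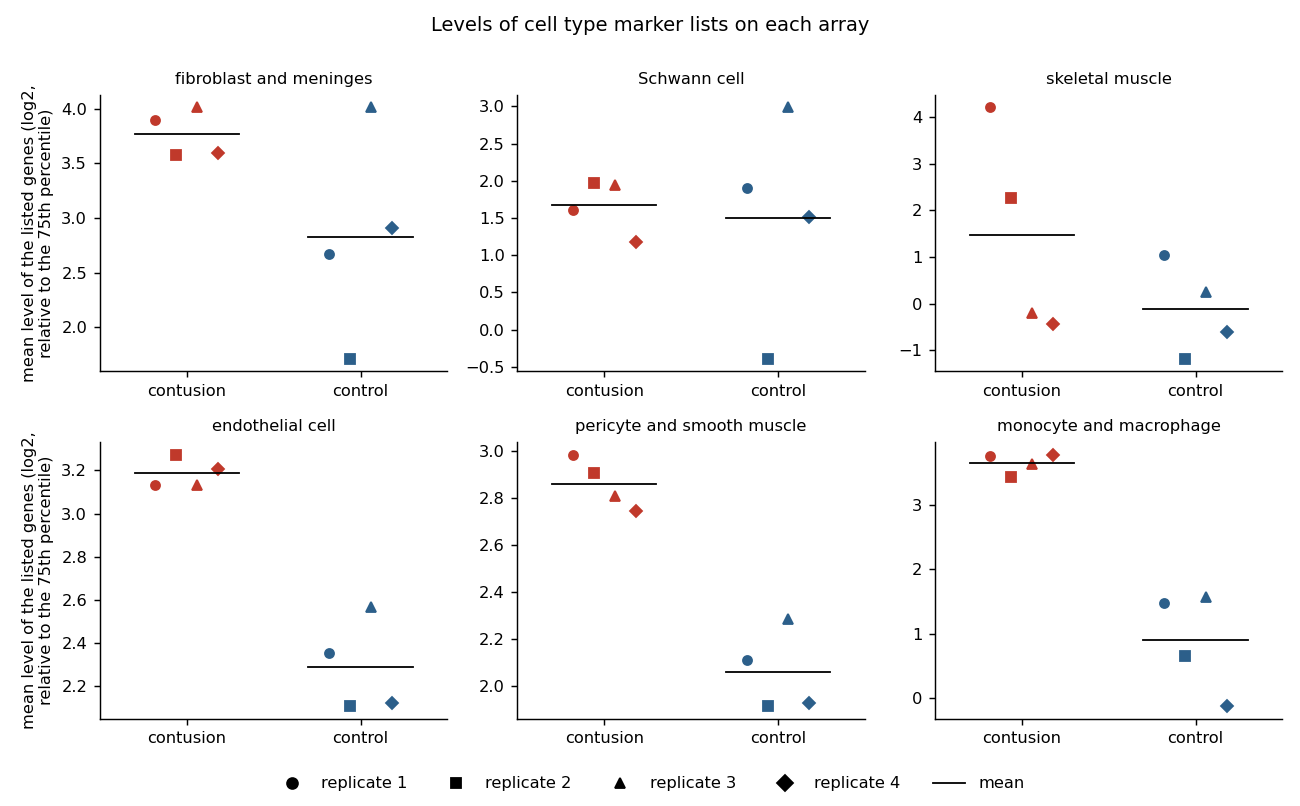
Mean level of 6 cell type marker lists on each array (y axis, log2 relative to the array's 75th percentile, scaled per panel), contused cords in red on the left and control cords in blue on the right; symbols mark replicates and the bar the mean of 4 arrays. Control replicate 3 reaches 4.02 for fibroblast and meningeal markers, level with the contused cords, and contusion replicate 1 reaches 4.21 for skeletal muscle markers.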

How the data were processed

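RNA of 8 spinal cords was read on 1-colour (Cy3) arrays. Per the labels' protocols, miRNeasy columns and a Low Input Quick Amp WT labelling were used. Per the file headers, the deposited spot intensity had its background subtracted and was detrended within the array, with no scaling across arrays. The tool was Feature Extraction, with version 10.7 in the submitters' processing notes, which also name limma, and 12.0.3.1 in the headers. The flags for signal well above background and for outlier spots (other columns) are those deposited, as 0 or 1. The authors' deposited series table holds log2 values that rank as the log2 intensity does (Spearman 1, column medians 5.3993 to 5.4), so it is on a common scale and not centred per gene, and served as an alternative only.

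From these, log2 intensity minus each array's 75th percentile was taken, without the 6 to 53 spots per array flagged as outliers. A probe was kept if it was well above background on 4 or more of the 8 arrays, and the brightest probe by mean stood for a gene. The comparison of the groups used limma 3.58.1 (R 4.3.3), two-sided. The p-values were adjusted by Benjamini-Hochberg across mRNAs, lncRNAs and circRNAs at once and, for single probes, across the 112202 probes kept. The code was tested on simulated data. Alternatives were normexp background correction (offset 50), quantile or median scaling, the authors' table, other filters and probe rules, slide or replicate number as a block, and arrays left out. Of 22694 mRNA accessions, 99.1% matched the RefSeq table for symbols. Same-numbered arrays did not deviate together (correlations -0.24 to 0.06), and the labels tie no number to a shared litter or day. The ADAMTS genes, the gene lists and the markers were chosen with earlier results of these data known. All 10 genes are named with every probe, any listed gene may be named, and the nearest mRNA is given for called genes with a difference of at least 1. Per the file headers, mRNA probe positions are on mm9.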

Additional observations from a re-analysis of the deposited data

Results flagged for a closer look

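Each probe and tested circRNA of these genes was examined within the contused and within the control arrays, 96 groups of 4 in all, and 6 held an array far from the other 3, where the gap to the nearest array is given as a share of the whole range. Chance puts about 1 in 20 groups there. Of the 6, 3 concern control replicate 3: Adamts1 at its brightest probe (share 0.833, at 2.32 beside 1.66 to 1.77), a dim Adamts5 probe (0.907, at -0.72 beside -1.89 to -1.78) and a probe of Adamts15 (0.857, at -0.00 beside -0.63 to -0.54). That array was the highest in each. Among contused cords, replicate 4 was high at 1 Adamts2 probe (0.914, at 0.97 beside -0.15 to -0.06), replicate 2 was high at the brightest Adamts5 probe (0.911, at 2.39 beside 2.17 to 2.19), and replicate 1 was low for the Adamts20 circRNA at 94324660 to 94326470 on chromosome 15 (0.939, at -0.74 beside -0.47 to -0.45).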

How the results depend on the processing

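Across 23 other settings, Adamts1 and Adamts8 kept their calls, with differences of 1.28 to 1.52 and 0.86 to 1.39. The Adamts12 difference of 1.05 was 0.22 and 0.21 under the settings with normexp background correction, against 1.38 for Adamts1 and 0.86 for Adamts8. The offset of 50 in that correction shrinks the differences of dim probes most, so these sizes are not comparable. Adamts3, Adamts9 and Adamts12 lost their calls only with contusion replicate 1 as the single contused array, where they differed by -0.85, 0.69 and 0.56. The count of genes called higher was 2 and lower 0 in that setting, 4 to 5 higher and 1 to 2 lower with 1 array left out, and 5 higher with slide as a block. Of all mRNAs, 1526 were called higher and 970 lower in that first setting, beside 4694 and 4612 with all arrays. The second gene called lower was Adamts20, without control replicate 1 and without control replicates 1 and 3, where 2 were called lower. Adamts4 and Adamts5 lost their calls in 9 and 13 settings. With the replicate block (a paired fit) 4 were higher and 1 lower; Adamts4 (0.29, adjusted p = 0.0554) and Adamts5 (0.67, 0.0697) were the calls lost. With the mean of a gene's probes 4 were higher and Adamts2 reversed to -0.013. Among probes, A_51_P164817 of Adamts2, at -0.02, reversed to 0.11 with slide as a block and ran from -0.19 to 0.13 with 1 array left out. Among circRNAs not called, 3 reversed: Adamts12 11071499 to 11152071 to -0.051 and Adamts12 11237534 to 11263453 to -0.0055 with slide as a block, and Adamts20 94328802 to 94333725 with 1 array left out, at -0.083 to 0.12. The median of all mRNAs moved by less than 0.1 in every setting.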
